A study of Mus musculus with 12 samples.

Results

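The genes of NAD synthesis and the sirtuins examined here were Nampt, Nmnat1, Nmnat3, Nadsyn1, Qprt, Nnmt, Sirt1, Sirt3 and Sirt5, taken as the rows of the count table that carry these symbols. They make up 9 of the 25611 genes in the table, and all 9 had enough reads to be tested among 13190 genes. Transcript levels were measured by poly(A) RNA-seq in whole livers of 12 male C57BL/6J mice aged 8 to 10 weeks, 4 mice in each of 3 groups. The sham mice had an abdominal incision without injury to the cecum. The CLP mice had cecal ligation and puncture, which releases gut bacteria into the abdomen and causes sepsis. The CLP+DCA mice had the same operation and received dichloroacetate, an inhibitor of pyruvate dehydrogenase kinase, at 25 mg/kg into the abdomen 24 hr after surgery. Every liver was taken 30 hr after surgery, 6 hr after the injections, and what the sham and CLP mice were injected with is not given in the sources used here. No sham group received dichloroacetate, so its effect outside sepsis could not be compared. No transgene or engineered deletion is named for any mouse in the sources used here. The mice were described as biological replicates of 1 sequencing experiment.

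NAD carries electrons in glycolysis, the TCA cycle and fatty acid oxidation, and it is also broken down by enzymes that use it as a substrate. Liver makes it from tryptophan through the kynurenine pathway and quinolinate, from nicotinic acid, and by salvage of the nicotinamide that NAD consumers release. Sirtuins are NAD-dependent deacylases, so the same transcript set holds enzymes that make NAD, an enzyme that diverts its precursor, and enzymes that spend it.

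Levels are given as CPM, the read count of a gene in a library of 1000000 reads, scaled between libraries by the trimmed mean of M values. A gene was called changed when edgeR's quasi-likelihood test, fitted to all 12 mice and adjusted by Benjamini-Hochberg over all genes tested, gave a value below 0.05. The 3 comparisons share groups, so their values are not independent of each other.

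The library of CLP+DCA replicate 3 stood apart. Of the 13190 genes tested, 43.7% lay above or below all other 11 mice in this liver, against 6.87% to 22.9% in each of the other mice. Its level lay outside those of the other 11 mice for 6 of the 9 genes, with Nampt above and Nmnat1, Nadsyn1, Qprt, Sirt3 and Sirt5 below. The 8 hepatocyte markers summed to 66192 to 85024 CPM in sham, 33512 to 49701 CPM in CLP and 29746 to 61491 CPM in CLP+DCA, lowest in CLP+DCA replicate 3. All 8 were detected in each group, 2 were higher in CLP than in sham and 1 of the 8 was called. The 12 neutrophil markers summed to 6.45 to 9.29 CPM in sham, 32.2 to 46.1 CPM in CLP and 6.76 to 61.3 CPM in CLP+DCA, highest in that same mouse. In sham livers 11 of the 12 were detected, with Camp at 0, and of the 10 tested 9 were higher in CLP and 1 was called. A list of 35 acute phase genes summed to 129166 to 156633 CPM in sham, 224455 to 445590 CPM in CLP and 174023 to 400901 CPM in CLP+DCA. Replicate 3 was again the highest of the CLP+DCA mice. In bulk liver, fewer cells of a type and less RNA per cell cannot be told apart, and the part of these markers in the results was not tested. The differences of the 9 genes and of the gene lists are therefore given with all 12 mice and without CLP+DCA replicate 3. That mouse was chosen after its values were seen, those of the 9 genes among them. Leaving it out is thus not independent of the tests that follow. Total counts ran from 24436513 to 44266819 reads per mouse.

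Across the whole table, 216 genes were called higher and 151 lower in CLP than in sham, 367 in all, a count that ran from 10 without sham replicate 3 to 3157 without CLP+DCA replicate 3. The split was 122 higher and 147 lower when library size alone set the scale, and 211 higher and 205 lower when acute phase genes were left out of the library sizes. The median log2 difference of all genes was 0.018 with the scaling used and -0.16 with library size alone. For CLP+DCA against sham the split was 4 higher and 1 lower, or 3 higher and 0 lower with library size alone.

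Promoter sequences were taken from RefSeq (GRCm38.p6, the assembly also called mm10), from 250 bases before the transcription start to 50 after it, and 8 of the 9 genes matched an entry. The first entry of a gene is shown for Nmnat1, Qprt and Sirt3, the genes whose sham and CLP levels did not overlap, for Nampt, the gene furthest out in a single mouse, and for Sirt1, whose group means were the closest. Capitals mark matches to the E-box CACGTG, the STAT motif TTCNNNGAA or the C/EBP motif TTGCNNAA, searched on both strands. No capital means only that none of these letters occur in the window shown.
Nmnat1: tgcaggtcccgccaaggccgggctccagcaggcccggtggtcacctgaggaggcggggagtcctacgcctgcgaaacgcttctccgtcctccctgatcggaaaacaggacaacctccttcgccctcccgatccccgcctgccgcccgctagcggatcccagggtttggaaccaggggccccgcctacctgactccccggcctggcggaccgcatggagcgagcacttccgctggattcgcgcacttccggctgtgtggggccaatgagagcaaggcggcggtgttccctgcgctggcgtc
Qprt: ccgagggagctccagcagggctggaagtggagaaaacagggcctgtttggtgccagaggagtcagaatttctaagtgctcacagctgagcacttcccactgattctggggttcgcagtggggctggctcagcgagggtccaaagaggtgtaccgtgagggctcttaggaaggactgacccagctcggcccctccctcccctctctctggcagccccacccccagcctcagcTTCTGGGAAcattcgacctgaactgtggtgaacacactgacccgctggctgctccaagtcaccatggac
Sirt3: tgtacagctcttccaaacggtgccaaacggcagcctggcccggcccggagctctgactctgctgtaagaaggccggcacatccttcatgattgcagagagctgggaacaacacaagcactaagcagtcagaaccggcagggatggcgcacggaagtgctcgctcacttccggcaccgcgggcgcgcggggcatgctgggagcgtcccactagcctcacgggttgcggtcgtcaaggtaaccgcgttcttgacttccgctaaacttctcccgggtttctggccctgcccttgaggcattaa
Nampt: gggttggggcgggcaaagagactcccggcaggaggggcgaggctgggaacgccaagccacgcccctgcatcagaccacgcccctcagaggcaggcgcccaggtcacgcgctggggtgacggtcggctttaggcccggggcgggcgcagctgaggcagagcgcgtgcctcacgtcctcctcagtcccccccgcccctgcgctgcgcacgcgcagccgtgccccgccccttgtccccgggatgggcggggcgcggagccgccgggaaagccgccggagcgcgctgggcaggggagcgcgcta
Sirt1: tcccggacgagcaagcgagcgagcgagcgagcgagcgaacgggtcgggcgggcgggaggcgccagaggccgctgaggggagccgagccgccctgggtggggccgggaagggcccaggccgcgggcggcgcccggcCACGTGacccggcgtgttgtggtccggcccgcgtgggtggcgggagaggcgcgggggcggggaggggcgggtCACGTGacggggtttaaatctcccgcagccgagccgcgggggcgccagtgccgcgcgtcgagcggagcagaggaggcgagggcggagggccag
These windows lie on mm10 at chr4:149485161-149485460 (minus strand) for Nmnat1, chr7:127121980-127122279 (minus) for Qprt, chr7:140882260-140882559 (minus) for Sirt3, chr12:32820085-32820384 (plus) for Nampt and chr10:63338986-63339285 (minus) for Sirt1. The Qprt promoter held 1 STAT match starting 19 bases before the transcription start, and the Sirt1 promoter held E-boxes at 115 and 43 bases before it. Among all 32851 promoter windows of the same length, 7.15% held the E-box, 8.3% the STAT motif and 10.8% the C/EBP motif. The other members with an entry held no match to the 3 motifs. The Sirt1 window had 79% G and C with 47 CpG pairs, the Nampt window 76.3% with 36, the Nmnat1 window 69% with 28, the Sirt3 window 61% with 23 and the Qprt window 60.3% with 7. The median promoter window had 52.7% G and C and 7 CpG pairs.

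Levels were compared between genes only after division by the length of merged exons. In sham livers Nnmt stood first at 237 ± 82.2 CPM per kb (SD, n = 4), followed by Qprt at 62.5 ± 3.30, Sirt3 at 39.2 ± 4.30, Nampt at 14.2 ± 2.38, Nadsyn1 at 8.13 ± 0.474 and Nmnat1 at 4.45 ± 0.283 CPM per kb. Each of these lay apart from the next gene in all sham mice. Sirt1 at 3.32 ± 0.611, Sirt5 at 3.26 ± 0.383 and Nmnat3 at 2.56 ± 0.195 CPM per kb closed the order, and the ranges of neighbours among these did not separate. The first 5 places were the same in CLP and in CLP+DCA. In CLP, the range of Nmnat1 at 3.19 ± 0.453 CPM per kb overlapped that of Sirt1 at 3.31 ± 0.460. In CLP+DCA the ranges of Sirt3 at 28.9 ± 8.12 and Nampt at 22.9 ± 19.6 CPM per kb overlapped through replicate 3.

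**Figure D1:**
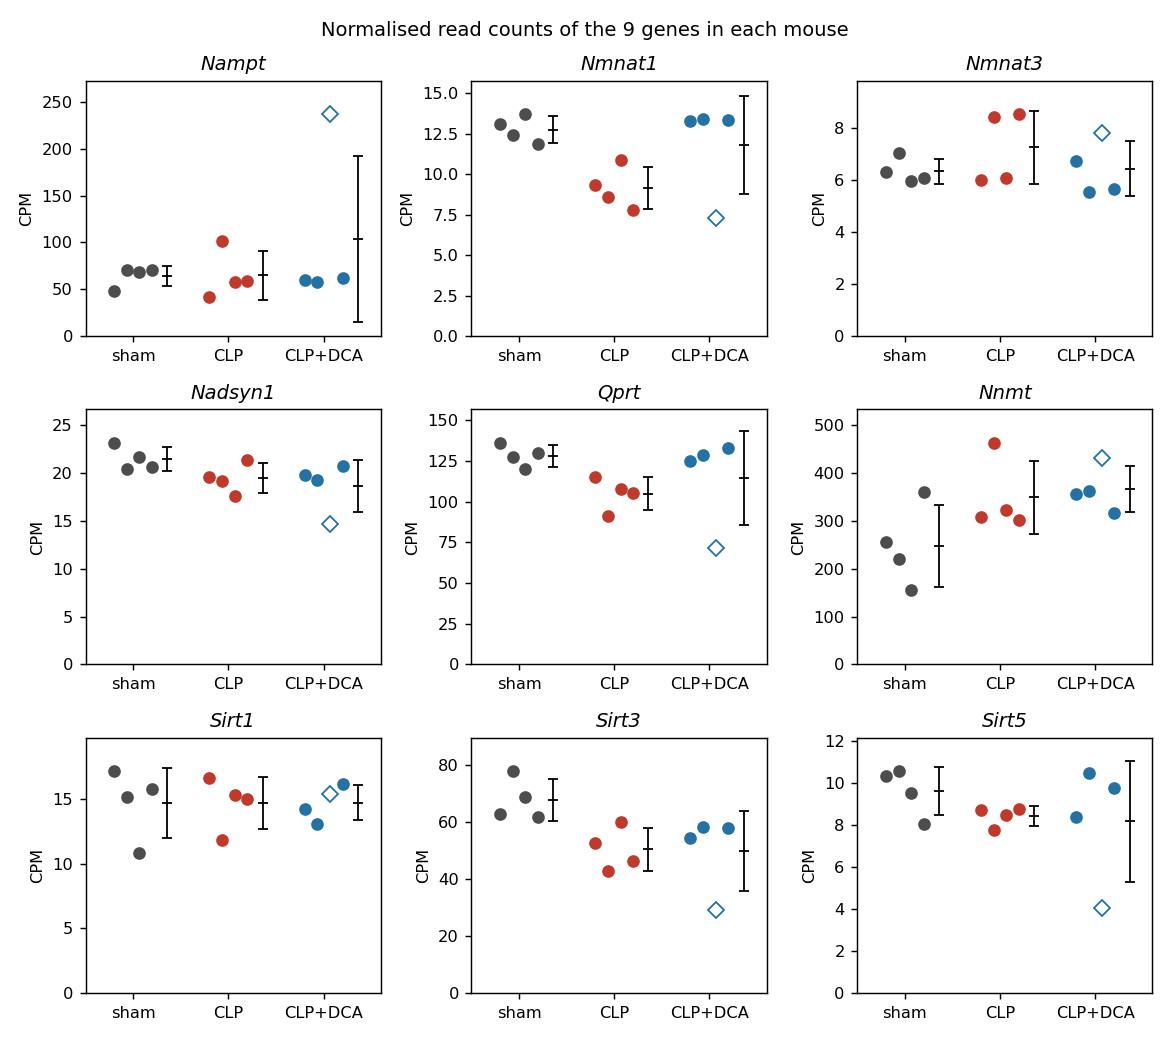
CPM of each of the 9 genes (vertical axes from 0) in every mouse of the 3 groups, with the mean and SD of 4 mice as black bars; the open diamond is CLP+DCA replicate 3. Nmnat1, Qprt and Sirt3 lay lower in all CLP mice than in all sham mice, and the diamond was the highest point for Nampt at 237 CPM.

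With all 12 mice, 0 of the 9 genes were called between CLP and sham, where 2.78% of all genes tested were called. At an unadjusted p under 0.05 edgeR returned 1 of the 9, against 28.6% of all genes, and that gene was Nmnat1. For 3 of the 9 the sham and CLP ranges did not overlap, all lower in CLP, against 26.5% of all genes in either direction. Without CLP+DCA replicate 3, which belongs to neither group, 3 of the 9 were called, against 23.8% of all genes. Those shares lie close to the background and single out nothing about the set. Filter, scaling and spread were estimated again on the remaining 11 mice, with 13288 genes tested, and which of these steps gained the calls was not tested. The summed hepatocyte markers, too, were lower in all CLP mice than in all sham mice, as were the scarce lymphocyte markers. Neutrophil, cholangiocyte and acute phase sums were higher in all CLP mice. The part of any of these sums in the differences of the 9 genes was not tested. The median log2 difference of the 9 genes was -0.14, beside 0.018 for all genes tested.

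Nampt, on mm10 at chr12:32820335-32853369, encodes the rate-limiting enzyme that turns nicotinamide into nicotinamide mononucleotide in salvage. Nampt read 48.2, 70.0, 68.5 and 70.5 CPM in sham replicates 1 to 4, then 41.1, 102, 58.0 and 58.6 CPM in CLP replicates 1 to 4, and 59.3, 57.9, 237 and 61.5 CPM in CLP+DCA replicates 1 to 4. The groups overlapped, with sham replicate 1 and CLP replicate 1 at the low end and CLP replicate 2 and CLP+DCA replicate 3 at the high end. CLP and sham means were 64.9 ± 26.0 and 64.3 ± 10.8 CPM (SD, n = 4 each), a log2 difference of 0.012 ± 0.45 (SE) with an adjusted p of 0.986 in edgeR's quasi-likelihood test. CLP+DCA replicate 3 held 3.97 times the mean of the other 3 treated mice. That 1 mouse set the sign of the treated comparisons. Nampt was 0.68 ± 0.45 higher on the log2 scale in CLP+DCA than in CLP (edgeR adjusted p = 0.648), and -0.12 without it (adjusted p = 0.774). Against sham the value was 0.69 ± 0.45 (edgeR adjusted p = 0.514), and -0.11 without that mouse (adjusted p = 0.945). Gdap10, annotated on the same strand over 2793 bases shared with Nampt, was counted at 185 reads in that mouse beside 8750 reads of Nampt, and at 31 to 86 reads in the others.

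Nmnat1, at chr4:149467569-149485210, encodes the nuclear adenylyltransferase that completes NAD from its mononucleotide. Nmnat1 read 13.1, 12.4, 13.7 and 11.8 CPM in sham replicates 1 to 4, then 9.30, 8.56, 10.8 and 7.81 CPM in CLP, and 13.3, 13.4, 7.28 and 13.3 CPM in CLP+DCA. All CLP mice lay below all sham mice, 3 treated mice lay within the sham range, and CLP+DCA replicate 3 lay below every other mouse. The CLP mean of 9.13 ± 1.298 CPM was 0.718 times the sham mean of 12.8 ± 0.810 CPM (SD, n = 4 each). The log2 difference was -0.48 ± 0.18 (SE) with an edgeR adjusted p of 0.116, so Nmnat1 was not called. Once CLP+DCA replicate 3 was left out the difference was -0.48 ± 0.10, and Nmnat1 was called lower (edgeR adjusted p = 0.00937). Between CLP+DCA and CLP the log2 difference was 0.37 ± 0.18 with all mice (edgeR adjusted p = 0.519) and 0.54 ± 0.11 without replicate 3, when Nmnat1 was called higher (adjusted p = 0.0266). The mouse left out had the lowest Nmnat1 level, so this call depends on a choice made after the values were seen. Against sham the treated mice stood at -0.11 ± 0.18, or 0.065 ± 0.11 without that mouse, neither called (edgeR adjusted p = 0.789 and 0.908).

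Nmnat3, at chr9:98296570-98420533, encodes the mitochondrial adenylyltransferase. Nmnat3 read 6.32, 7.03, 5.95 and 6.07 CPM in sham, then 6.01, 8.42, 6.06 and 8.52 CPM in CLP, and 6.73, 5.54, 7.79 and 5.66 CPM in CLP+DCA, in the order of the replicates. CLP replicates 2 and 4 and CLP+DCA replicate 3 lay above all sham mice, and the groups overlapped. Log2 differences were 0.19 ± 0.16 for CLP against sham, -0.17 ± 0.16 for CLP+DCA against CLP and 0.021 ± 0.16 for CLP+DCA against sham, with edgeR adjusted p values of 0.424, 0.747 and 0.958. They became 0.19, -0.27 and -0.086 without CLP+DCA replicate 3, and none was called. Without CLP replicate 4 the first was 0.10.

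Qprt, at chr7:127107770-127122029, encodes quinolinate phosphoribosyltransferase, the entry of the kynurenine route into NAD. Qprt read 136, 127, 119.8 and 129.6 CPM in sham, then 115, 91.0, 108 and 105 CPM in CLP, and 125, 129, 71.6 and 133 CPM in CLP+DCA, in the order of the replicates. As for Nmnat1, every CLP mouse lay below every sham mouse, 3 treated mice lay within the sham range, and CLP+DCA replicate 3 was the lowest of all. CLP and sham means were 105 ± 10.04 and 128 ± 6.76 CPM (SD, n = 4 each), a log2 difference of -0.29 ± 0.17 that was not called (edgeR adjusted p = 0.265). It was -0.29 ± 0.088 without CLP+DCA replicate 3, and Qprt was called lower (edgeR adjusted p = 0.0342). The log2 difference of CLP+DCA from CLP was 0.13 ± 0.17 (edgeR adjusted p = 0.832), and 0.30 ± 0.094 without that mouse, with no overlap of ranges but no call (adjusted p = 0.0770). Treated and sham mice differed by -0.16 ± 0.17 with all mice and by 0.0076 ± 0.095 without it (edgeR adjusted p = 0.673 and 0.992).

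Nadsyn1, at chr7:143795591-143822852, encodes NAD synthetase, which amidates the nicotinic acid form in the last step of the routes from tryptophan and nicotinic acid. Nadsyn1 read 23.2, 20.4, 21.7 and 20.6 CPM in sham, then 19.6, 19.1, 17.6 and 21.4 CPM in CLP, and 19.7, 19.3, 14.7 and 20.7 CPM in CLP+DCA, in the order of the replicates. The CLP and sham ranges overlapped through CLP replicate 4, and CLP+DCA replicate 3 was the lowest mouse. Log2 differences were -0.14 ± 0.11, -0.063 ± 0.11 and -0.21 ± 0.11 for CLP against sham, CLP+DCA against CLP and CLP+DCA against sham, with edgeR adjusted p values of 0.382, 0.878 and 0.429. These were -0.14, 0.037 and -0.11 without CLP+DCA replicate 3, and none was called.

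Nnmt, at chr9:48591877-48605123, encodes the methyltransferase that removes nicotinamide from salvage with a methyl group of S-adenosylmethionine. Nnmt read 256, 220.2, 155 and 359.7 CPM in sham, then 307, 463, 323 and 301 CPM in CLP, and 355, 362, 430.2 and 316 CPM in CLP+DCA, in the order of the replicates. It was the only one of the 9 genes whose CLP and CLP+DCA means both exceeded the sham mean by over 0.4 on the log2 scale, yet sham replicate 4 lay within the range of the other groups. Sham, CLP and CLP+DCA means were 248 ± 85.7, 349 ± 76.5 and 366 ± 47.4 CPM (SD, n = 4 each). The log2 difference was 0.49 ± 0.23 for CLP against sham (edgeR adjusted p = 0.188), 0.070 ± 0.23 for CLP+DCA against CLP (adjusted p = 0.935) and 0.56 ± 0.23 for CLP+DCA against sham (adjusted p = 0.349). The values were 0.49, -0.018 and 0.48 without CLP+DCA replicate 3, and Nnmt was not called in any of them (edgeR adjusted p = 0.128, 0.969 and 0.590). The difference of CLP from sham was 0.32 without sham replicate 3, 0.33 without CLP replicate 2 and 0.73 without sham replicate 4.

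Sirt1, at chr10:63319005-63339035, encodes a nuclear deacetylase. Sirt1 read 17.1, 15.1, 10.9 and 15.7 CPM in sham, then 16.6, 11.8, 15.3 and 14.98 CPM in CLP, and 14.2, 13.1, 15.3 and 16.2 CPM in CLP+DCA, in the order of the replicates. Group means were 14.7 ± 2.71, 14.7 ± 2.04 and 14.7 ± 1.36 CPM (SD, n = 4 each), and CLP+DCA replicate 3 lay among the other mice. The 95% confidence interval of the log2 difference of CLP from sham ran from -0.32 to 0.32, so smaller changes in either direction were not detectable here. It had the same bounds for CLP+DCA against CLP and against sham. Adjusted p values from edgeR were 0.999, 0.998 and 0.998 in the 3 comparisons. The log2 differences were 0.0013, -0.024 and -0.023 without CLP+DCA replicate 3.

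Sirt3, at chr7:140863663-140882309, encodes the main mitochondrial deacetylase. Sirt3 read 62.6, 77.7, 68.6 and 61.6 CPM in sham, then 52.4, 42.7, 59.8 and 46.4 CPM in CLP, and 54.2, 58.2, 29.0 and 57.9 CPM in CLP+DCA, in the order of the replicates. All 8 septic mice, treated or not, lay below all sham mice. CLP and sham means were 50.3 ± 7.48 and 67.6 ± 7.42 CPM (SD, n = 4 each), a fold of 0.745 and a log2 difference of -0.43 ± 0.20 that was not called (edgeR adjusted p = 0.179). Leaving out CLP+DCA replicate 3 gave -0.42 ± 0.11, and Sirt3 was called lower (edgeR adjusted p = 0.0200). For CLP+DCA against sham the log2 difference was -0.44 ± 0.20 (edgeR adjusted p = 0.378), and -0.25 ± 0.12 without that mouse (adjusted p = 0.545). CLP+DCA and CLP differed by -0.015 ± 0.20 with all mice and by 0.17 ± 0.12 without it (edgeR adjusted p = 0.986 and 0.357). Sirt3 shares 69 bases with Ric8a on the opposite strand, and whether counting used strand is not given in the sources used here.

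Sirt5, at chr13:43370716-43395203, encodes a mitochondrial deacylase that removes succinyl and malonyl groups. Sirt5 read 10.3, 10.6, 9.52 and 8.06 CPM in sham, then 8.70, 7.75, 8.48 and 8.75 CPM in CLP, and 8.39, 10.48, 4.06 and 9.76 CPM in CLP+DCA, in the order of the replicates. The groups overlapped, and CLP+DCA replicate 3, with 150 reads, held 0.425 times the mean of the other 3 treated mice. Log2 differences were -0.19 ± 0.23, -0.046 ± 0.23 and -0.24 ± 0.23 for CLP against sham, CLP+DCA against CLP and CLP+DCA against sham, with edgeR adjusted p values of 0.589, 0.958 and 0.648. Without that mouse they were -0.19, 0.18 and -0.012, and none was called.

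**Figure D2:**
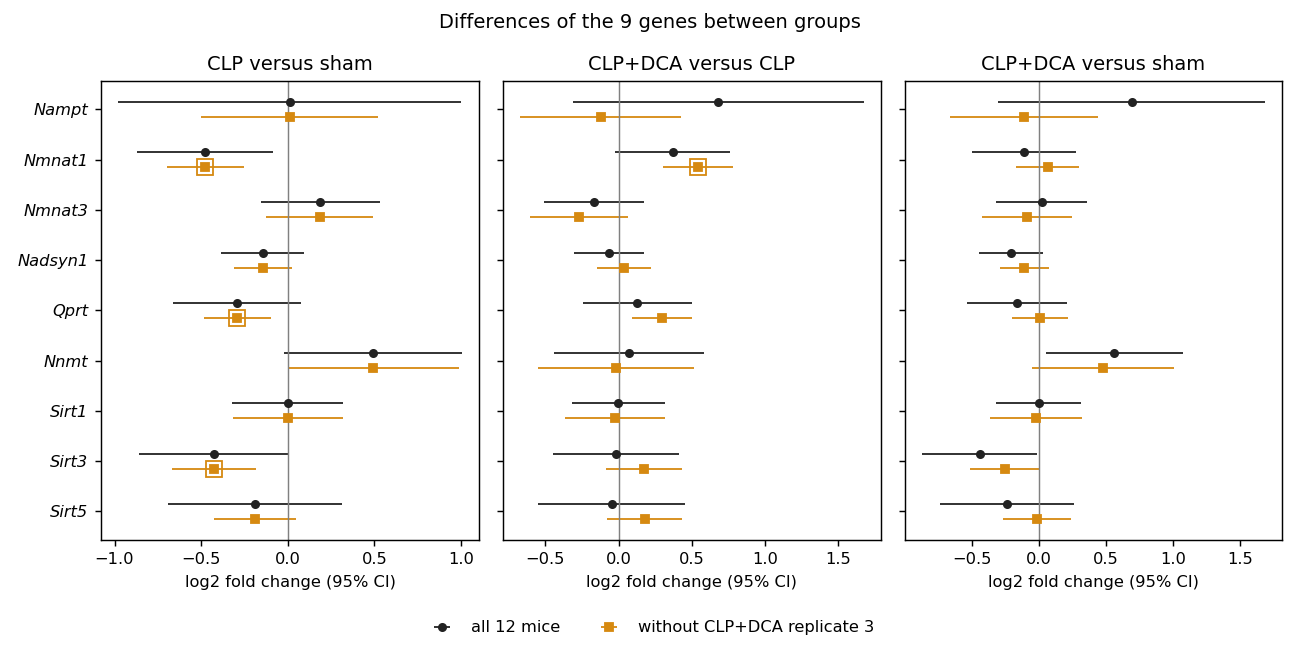
Log2 fold change with its 95% confidence interval (horizontal axes) for the 9 genes in the 3 comparisons, with all 12 mice (black circles) and without CLP+DCA replicate 3 (orange squares); larger outlines mark genes called at 0.05. Outlines appear only without that mouse, for Nmnat1, Qprt and Sirt3 in CLP against sham and for Nmnat1 in CLP+DCA against CLP.

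Dichloroacetate in septic mice was compared with sepsis alone. With all 12 mice, 0 of the 9 genes were called between CLP+DCA and CLP in edgeR's test, where 0.00758% of all genes were called, and 0 of the 9 had an unadjusted p under 0.05, against 10% of all genes. For 0 of the 9 did the ranges separate, against 4.37% of all genes. Without CLP+DCA replicate 3, 1 of the 9 was called (Nmnat1, higher), against 4.64% of all genes, and for 2 of the 9 (Nmnat1 and Qprt, higher) the ranges separated, against 22.7%. Between CLP+DCA and sham 0 of the 9 were called in edgeR's test, against 0.0379% of all genes, while 2 of the 9 (Nnmt higher, Sirt3 lower) had an unadjusted p under 0.05, against 13%. Sirt3 was the 1 gene of the 9 whose ranges separated there, against 9.76% of all genes. Without replicate 3 the called count was again 0, against 0.0828%, and Sirt3 remained the 1 gene with separated ranges, against 13.2%.

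Other tools gave the following counts. DESeq2 on the 8 mice of each comparison called 3 of the 9 between CLP and sham (Nmnat1, Qprt and Sirt3, all lower, adjusted p = 0.00384, 0.0119 and 0.0128), against 23.2% of all genes. It called 0 of the 9 between CLP+DCA and CLP, against 0.615%, and 0 between CLP+DCA and sham, against 1.19%. DESeq2 on all 12 mice called 0 of the 9 in each comparison, against 13.4% of all genes between CLP and sham, 0.875% between CLP+DCA and CLP and 1.79% between CLP+DCA and sham. edgeR on the 8 mice called 2 of the 9 between CLP and sham (Nmnat1 and Sirt3, lower), against 18.3%. With limma-voom and sample quality weights, 3 of the 9 were called between CLP and sham, against 26.2%, and 1 (Nmnat1, higher) between CLP+DCA and CLP, against 10.2%.

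**Figure D3:**
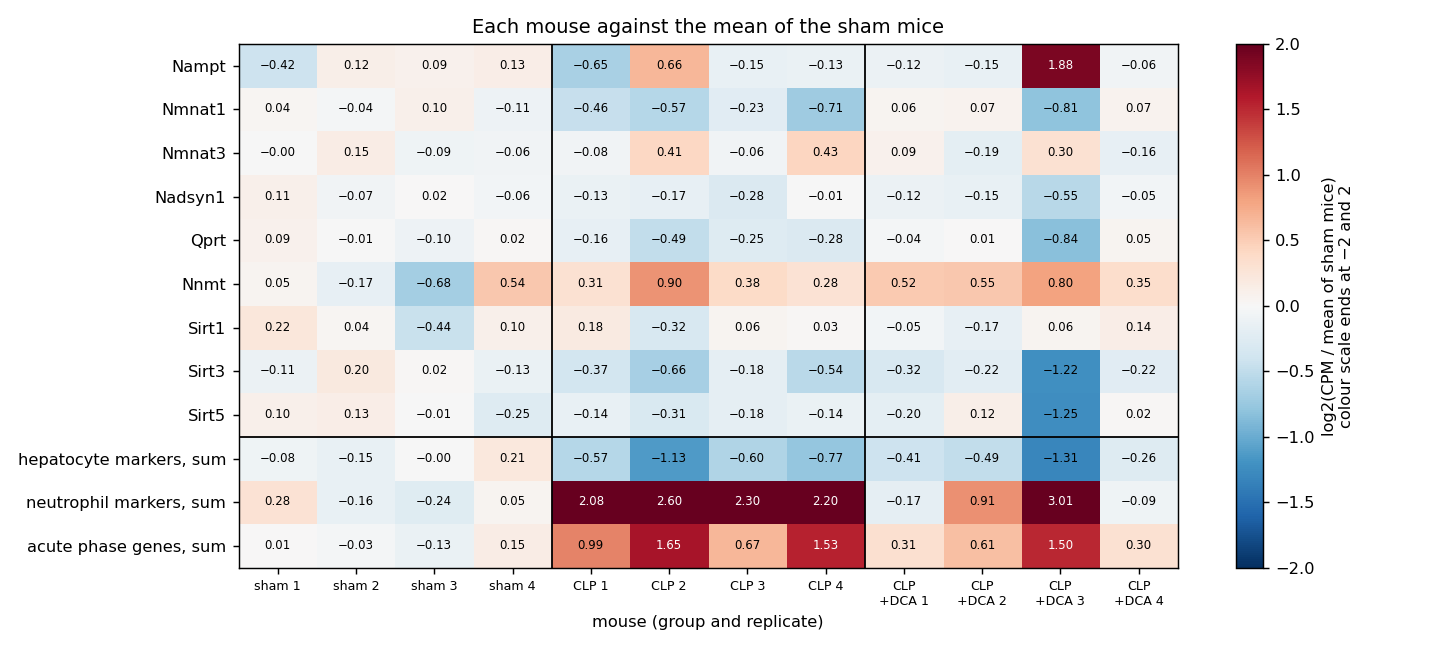
Log2 ratio of CPM to the mean of the sham mice for the 9 genes and for the summed hepatocyte markers, neutrophil markers and acute phase genes (rows) in each of the 12 mice (columns), with colours ending at -2 and 2 and the value printed in each cell. CLP+DCA replicate 3 reached 1.88 for Nampt and -1.22 for Sirt3, and its neutrophil marker sum was 3.01 above the sham mean.

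The enzymes and transporters around these genes were described by 6 lists of 53 genes, of which 49 were tested. The genes Ido1, Nmrk2, Nmnat2 and Slc12a8 had too few reads. Between CLP and sham, 0 of the 49 were called with all 12 mice (lowest adjusted p 0.0534, edgeR's quasi-likelihood test), against 2.78% of all genes. In that test 21 had an unadjusted p under 0.05, 8 higher and 13 lower, against 28.6% of all genes. The median log2 difference of the 49 was -0.17. Of all 13190 genes tested, 6844 were higher and 6346 lower in CLP. Without CLP+DCA replicate 3, 18 of the 49 were called, 6 higher and 12 lower, against 23.8% of all genes, and 26 had an unadjusted p under 0.05 in edgeR's test, against 39.2%. The median was again -0.17, beside 0.018 for all genes.

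The kynurenine pathway list holds enzymes that lead to Qprt and enzymes that branch away from that route. Aadat, Kyat1, Kyat3 and Acmsd are of the branching kind, so counts over the list do not measure supply to Qprt. Of its 10 tested genes 9 were lower in CLP, those named included, beside 6346 of all 13190 genes. The median of the 10 was -0.48. 5 of the 10 had an unadjusted p under 0.05 in edgeR's test, all lower, against 28.6% of all genes. Aadat, a kynurenine aminotransferase, averaged 51.5 ± 10.54 CPM in CLP and 78.7 ± 6.89 CPM in sham (SD, n = 4 each), a log2 difference of -0.61 (edgeR adjusted p = 0.0956). Kynu, the kynureninase, averaged 101 ± 9.49 and 152 ± 29.8 CPM (SD, n = 4 each), a difference of -0.59 (edgeR adjusted p = 0.116). The ranges of both genes were apart in CLP and sham. Without CLP+DCA replicate 3, 3 of the 10 were called, all lower, against 23.8% of all genes in either direction. They were Kynu, Aadat and Haao, Haao being named after its values were seen. In CLP+DCA against CLP, 9 of the 10 were higher with a median of 0.20, beside 6802 of all 13190 genes higher. In edgeR's test 0 of the 10 had an unadjusted p under 0.05, against 10% of all genes. The test called 0 of them, against 0.00758% of all genes. Once replicate 3 was left out, 9 of the 10 were again higher with a median of 0.42, beside 6519 of all 13288 genes higher. In edgeR's test 6 had an unadjusted p under 0.05, all higher, against 28.2% of all genes. Of the 10, 0 were called, against 4.64% of all genes.

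Salvage and uptake genes differed in both directions. Nmrk1, a kinase that feeds nicotinamide riboside into NAD, averaged 14.4 ± 2.499 CPM in CLP against 22.7 ± 3.26 in sham (SD, n = 4 each), a log2 difference of -0.65 (edgeR adjusted p = 0.103). Pnp, a purine nucleoside phosphorylase that can split nicotinamide riboside, averaged 136 ± 44.7 against 81.0 ± 4.64 CPM (SD, n = 4 each), a difference of 0.74 (edgeR adjusted p = 0.120). Both were called without CLP+DCA replicate 3, Nmrk1 lower and Pnp higher, and their CLP and sham ranges did not overlap.

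Of 8 genes for NADP synthesis, NAD repair and transport, 7 were lower in CLP, with a median of -0.15. Naxe, an epimerase that repairs hydrated NADH, differed by -0.42 (edgeR adjusted p = 0.0720), and Nadk2, the mitochondrial NAD kinase, by -0.49 (adjusted p = 0.0811). Both were called lower without CLP+DCA replicate 3. The cytosolic kinase Nadk, named after its values were seen, was the 1 gene of the 49 called between CLP+DCA and CLP once that mouse was left out, at 0.52 on the log2 scale (edgeR adjusted p = 0.0464). Its levels spanned 176 to 192 CPM in sham livers, 112 to 167 in CLP livers and 112 to 209.6 in CLP+DCA.

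Consumers other than sirtuins were mixed, with 10 of 17 higher in CLP and a median of 0.090. Cd38, an NAD glycohydrolase of immune and other cells, averaged 15.7 ± 3.95 CPM in CLP and 8.68 ± 0.606 in sham (SD, n = 4 each), a log2 difference of 0.85 (edgeR adjusted p = 0.0718). Parp4, a poly(ADP-ribose) polymerase family member, averaged 26.7 ± 3.96 and 20.1 ± 1.90 CPM (SD, n = 4 each), a difference of 0.41 (edgeR adjusted p = 0.0725). Both were called higher without CLP+DCA replicate 3. Summed neutrophil markers were also higher in all CLP mice than in all sham mice. In CLP+DCA replicates 1 to 4 that sum was 6.76, 14.4, 61.3 and 7.18 CPM. Cd38 spanned 10.2 to 25.8 CPM in CLP+DCA and 7.97 to 9.33 CPM in sham, without a call (edgeR adjusted p = 0.235). The part of neutrophils in the levels of Cd38 was not tested. Of the other 4 sirtuins, 3 were lower in CLP. The cytosolic Sirt2 differed by -0.21 (edgeR adjusted p = 0.101) and the nucleolar Sirt7 by -0.44 (adjusted p = 0.215), each with ranges below sham, and both were called without that mouse.

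Of the 6 clearance and methyl donor genes listed beside Nnmt, 5 were lower in CLP and 1, Mat1a, was higher. Mat1a, the liver S-adenosylmethionine synthetase, spanned 5564 to 7851 CPM in CLP and 3120 to 5138 CPM in sham, a log2 difference of 0.69 (edgeR adjusted p = 0.0534). Gnmt, a glycine methyltransferase that uses S-adenosylmethionine, spanned 393 to 712 CPM in CLP and 898 to 1816 CPM in sham, a difference of -1.16 (edgeR adjusted p = 0.129). Mat1a was called higher and Gnmt lower when CLP+DCA replicate 3 was left out. Aox1 and Aox3, named after their values were seen, differed by -0.75 and -1.44 (edgeR adjusted p = 0.133 and 0.322). Both had CLP ranges below sham, and Aox1 was called lower without that mouse. The 6 genes of that list had a median of -0.50.

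**Figure D4:**
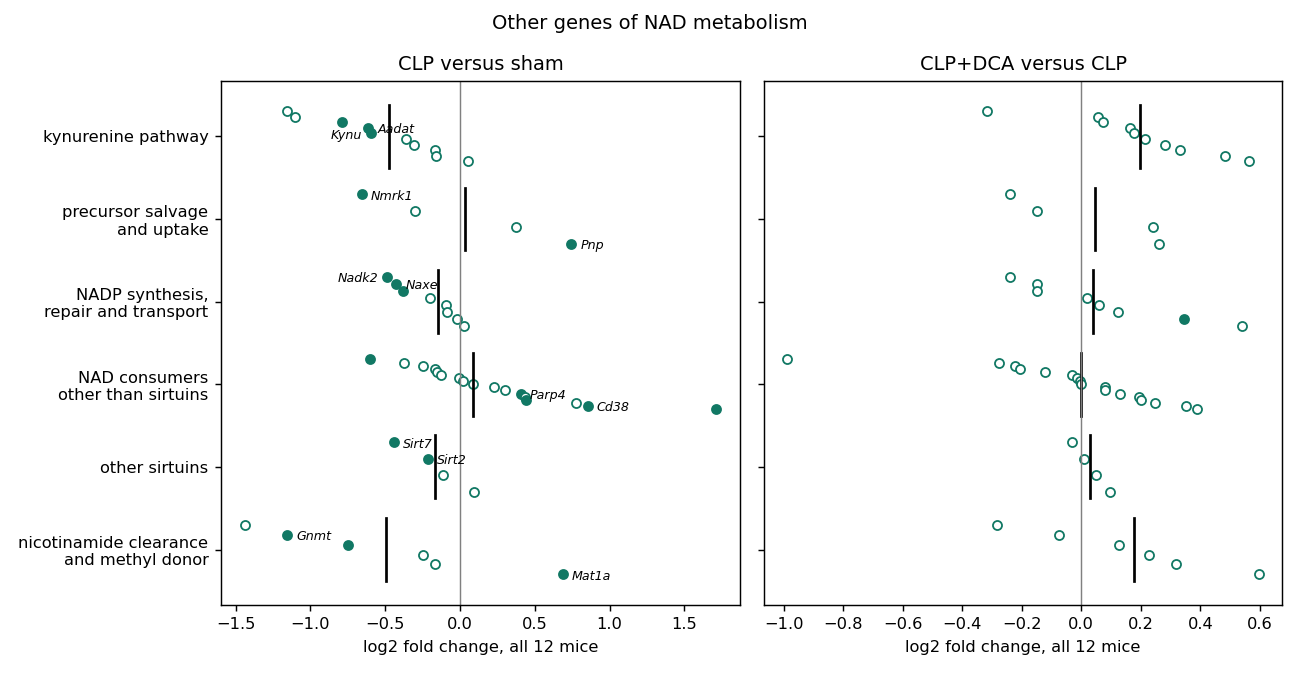
Log2 fold change with all 12 mice (horizontal axes) of the 49 tested genes of 6 lists (rows) in CLP against sham and in CLP+DCA against CLP, with the list median as a black line; filled points are genes called once CLP+DCA replicate 3 was left out. In CLP against sham 18 points are filled, and in CLP+DCA against CLP the filled point is Nadk.

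Between CLP+DCA and CLP, 0 of the 49 list genes were called with all 12 mice in edgeR's test, against 0.00758% of all genes. In that test 4 had an unadjusted p under 0.05, all higher, against 10% of all genes. The median was 0.078. With replicate 3 left out, 1 of the 49 was called (Nadk), against 4.64% of all genes. In edgeR's test 19 had an unadjusted p under 0.05, 16 higher and 3 lower, against 28.2% of all genes. The median of the 49 was then 0.14. Between CLP+DCA and sham 0 were called, against 0.0379% of all genes, and the median was -0.12. Of the 49, 9 had an unadjusted p under 0.05 in edgeR's test, 6 higher and 3 lower, against 13% of all genes. Leaving replicate 3 out gave 0 called, against 0.0828% of all genes, and a median of -0.014. Then 6 had an unadjusted p under 0.05 in edgeR's test, 4 higher and 2 lower, against 9.38% of all genes.

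Salvage was set against clearance by the log2 ratio of Nampt to Nnmt reads within each liver. It averaged -1.90 ± 0.592 in sham livers, -2.48 ± 0.306 in CLP livers and -2.11 ± 0.842 in CLP+DCA (SD, n = 4 each). CLP and sham differed by -0.58 (two-sided exact permutation test, p = 0.171, adjusted p = 0.743 over 6 comparisons), by -0.34 without sham replicate 3 and by -0.75 without sham replicate 1. The ratio of Qprt to Acmsd, which draws intermediates away from quinolinate, differed by 0.62 between CLP and sham (two-sided exact permutation test, p = 0.371, adjusted p = 0.743). That value ran from 0.18 without sham replicate 4 to 0.97 without sham replicate 2. The other 4 comparisons had p from 0.4 to 0.743 in the same exact test, whose smallest possible p with 4 against 4 mice is 0.0286. After adjustment over 6 comparisons, a single ratio at that smallest p could not have fallen below 0.05 by itself. CLP+DCA replicate 3 stood at -0.86 for Nampt to Nnmt, and without it CLP+DCA differed from CLP by -0.048. For Qprt to Acmsd, leaving out the same mouse gave -0.50 against CLP and 0.12 against sham.

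Likeness was measured as the root mean square difference between 2 genes over 12 mice in log2 CPM relative to the sham mean. The genes closest to Nmnat1 were Mrpl35 (0.0692), Skp1a (0.0818) and Dexi (0.0820), and the closest member was Qprt at 0.169, in place 296 of all genes. Mrpl35, Skp1a and Dexi, like Nmnat1, were each lowest in CLP+DCA replicate 3. For Nnmt they were AW554918 (0.208), Pms2 (0.214) and Mat1a (0.222), of which AW554918 and Pms2 were highest in that mouse. For Nampt, examined after its values were seen, they were Trp53inp1 (0.186), Pspc1 (0.255) and 3110043O21Rik (0.297), each highest in CLP+DCA replicate 3. The closest genes were picked over 12 mice that include CLP+DCA replicate 3. A shared extreme there thus follows largely from the choice and is not a separate result. AW554918 and Pms2 had few reads, at 1.52 to 3.06 and 1.17 to 3.65 CPM. Likeness was not measured without that mouse.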

How the data were processed

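Whole-liver poly(A) libraries (TruSeq v2) of 12 mice were sequenced and, per the study's methods and the submitters' processing notes, the authors aligned reads to mm10 with STAR 2.5 and made raw counts per gene with Subread featureCounts 1.5.0-p1. Annotation and strand setting are not given in the sources used here. The deposited counts are not normalised, and every per-mouse column was used.

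Genes passed filterByExpr at a minimum count of 10. TMM scaling and edgeR 4.0.16 quasi-likelihood tests with robust estimation (R 4.3.3) were fitted to group means of 4 mice each, with a threshold of 0.05. The study used DESeq2, here (1.42.0) an alternative beside limma 3.58.1. Other alternatives changed the scaling, the filter, the mice fitted, a replicate block and each mouse in turn. CPM used TMM library sizes, log2 CPM a prior count of 2, and ratios 0.5 added reads. The edgeR, DESeq2 and limma fits were tested on simulated counts. These had the same spread for all genes and no library set apart like CLP+DCA replicate 3. They cannot show how the fits behave with such a library. Members had 150 to 15900 reads per mouse, which limits their precision, and p-values measure the spread between these mice.

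Same-numbered mice did not deviate together (correlations -0.46 to 0.55 between CLP+DCA and CLP), so numbers were not taken as pairs. No 2 libraries of the same group were duplicates. Members, lists and tests were chosen with earlier results of these data known. All members were named, with the 2 list genes of lowest p in CLP against sham per list, and the 3 genes most like the member of lowest p in each direction. Summed levels of markers of Kupffer cells and macrophages spanned 194 to 321 CPM in sham, 301 to 387 in CLP and 248 to 483 in CLP+DCA, lymphocytes 2.35 to 4.62, 0.763 to 1.86 and 0.974 to 3.32, endothelium 120.1 to 153, 139.6 to 175 and 115 to 169, stellate cells 73.1 to 111, 98.3 to 403 and 88.2 to 223, and cholangiocytes 34.4 to 43.7, 62.0 to 96.2 and 38.4 to 213. Exon lengths came from GENCODE vM21.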

Additional observations from a re-analysis of the deposited data

Results flagged for a closer look

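The 9 genes and the log2 ratios were each examined in the 3 groups, giving 33 sets of 4 values. In 7 of the 33 sets, 1 value lay further from the rest than a Dixon test at its 95% limit allows. Chance gives this in about 1 in 20 independent sets, but these sets share mice and genes, so the rate is no measure for the 7. CLP+DCA replicate 3 accounted for 5 of the 7. On the log2 CPM scale it stood at 7.89 for Nampt, where the nearest treated mouse was at 5.94, at 2.88 for Nmnat1, at 6.16 for Qprt and at 4.86 for Sirt3, where the nearest treated mice were at 3.74, 6.97 and 5.76. Its log2 ratio of Nampt to Nnmt was -0.86, and the nearest treated mouse was at -2.36. Sham replicate 1 was low for Nampt at 5.59 on the log2 CPM scale, with the next sham mouse at 6.10. CLP replicate 2 was high for Nnmt at 8.85, with the next CLP mouse at 8.34.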

How the results depend on the processing

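Counts of calls are given in the order CLP against sham, CLP+DCA against CLP, CLP+DCA against sham, from 367, 1 and 5 of all genes, 0, 0 and 0 members and 0, 0 and 0 list genes. Without a filter 122 genes were called in the first; with 1 CPM in every mouse of a group 1 list gene (first); with library size alone 3 genes in the third. DESeq2 on 12 mice called 1906, 137 and 243 genes and 8, 0 and 1 list genes. On the 8 mice compared it called 3422, 80 and 169 genes, 3 members in the first, and 20, 0 and 1 list genes. edgeR on 8 mice called 2387, 0 and 0 genes, 2 members and 16 list genes. Limma-voom with weights called 3453, 1341 and 496 genes, 3, 1 and 0 members, and 20, 2 and 2 list genes. The replicate block gave 46, 4 and 0 genes and 0 members. Leaving out each mouse in turn gave 10 to 3157, 0 to 616 and 1 to 11 genes, 0 to 3 members in the first and 0 to 1 in the second, and 0 to 18 and 0 to 1 list genes. The highest member and list counts came without CLP+DCA replicate 3, and list genes were also called without CLP replicate 3 (3) and CLP+DCA replicate 4 (2). The causes were not tested. By construction fewer mice entered some fits, and the genes tested changed, from 13190 to 18842 unfiltered and to 11382 with 1 CPM in every mouse of a group. No value that changed sign was called. In CLP against sham, Nampt became -0.19 with library size alone, -0.0022 without acute phase genes, -0.0046 unfiltered, -0.13 by voom and -0.0097 under the replicate block; Nmnat3 -0.0026 with library size alone; Sirt1 0.010 with 1 CPM, 0.00013 by edgeR on 8 mice and 0.041 by voom. In CLP+DCA against CLP, library size alone gave 0.067 for Nadsyn1, 0.10 for Sirt1, 0.10 for Sirt3 and 0.084 for Sirt5, voom 0.0026, 0.13 and 0.036 for Nadsyn1, Sirt3 and Sirt5, and Sirt1 was 0.0070 without acute phase genes, 0.0067 unfiltered, 0.00075 by DESeq2 on 8 mice and 0.0054 under the replicate block. In CLP+DCA against sham, Nmnat3 was -0.046 with library size alone and -0.015 by voom, Nmnat1 0.041 by voom, and Sirt1 0.0013 with 1 CPM and 0.0049 under the replicate block. With each mouse left out, CLP against sham spanned -0.29 to 0.18 for Nampt and -0.12 to 0.089 for Sirt1. CLP+DCA against CLP spanned -0.12 to 0.98 for Nampt, -0.12 to 0.037 for Nadsyn1, -0.018 to 0.24 for Nnmt, -0.090 to 0.065 for Sirt1, -0.11 to 0.17 for Sirt3 and -0.21 to 0.18 for Sirt5. CLP+DCA against sham spanned -0.11 to 0.91 for Nampt, -0.17 to 0.065 for Nmnat1, -0.086 to 0.094 for Nmnat3, -0.24 to 0.0076 for Qprt and -0.12 to 0.078 for Sirt1. The log2 ratio of Nampt to Nnmt spanned -0.048 to 0.55 for CLP+DCA against CLP and -0.63 to 0.026 against sham, and Qprt to Acmsd -0.17 to 0.62 against sham. Nmnat1, Nmnat3 and Sirt5 had 150 to 501 reads per mouse.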
